A study of Mus musculus with 3 samples.

Results

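The extracellular matrix genes of the mouse array, with the proteases that cut the matrix and the inhibitors of those proteases, were compared across 3 sorted cell fractions of the neonatal olfactory epithelium. Members were chosen by name. They were the collagens, the laminins, the matrix metalloproteinases (Mmp) and the tissue inhibitors of metalloproteinases (Timp), plus Sparc, Dcn, Lum, Mgp, Fn1, Bgn and Postn. Fbn1 was not analysed here. Of 18193 genes with a symbol, 81 were members. Where a gene had several probe sets, the set with the highest mean signal stood for it. The floor was the pooled median of all probe set signals, 104, and 59 of the 81 members reached it on at least 1 array, as did 12331 of all genes. The other 22 members have no usable value and enter no count of differences. By their highest signal, the members just inside the floor were Col20a1 (116), Col13a1 (123) and Mmp8 (137), and those just outside it Col5a3 (98.0), Mmp7 (74.1) and Mmp17 (69.3).

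The sorted cells came from Tgn1-2G transgenic mice, male and female, aged 5 to 8 days after birth. In this line green fluorescent protein (GFP) is known from other work to be driven by regulatory DNA of Neurog1, whose product commits olfactory precursors to the neuronal fate. The GFP+++ array held RNA of 1000000 strongly fluorescent cells, the GFP+ array that of 1300000 weakly fluorescent cells and the GFP- array that of 6800000 unlabelled cells. Each fraction carries the number 32, read here as pooled mice, and it is not stated whether the fractions share mice. By the submitters' account GFP+++ was enriched in immature neurons and GFP+ slightly in mature neurons, while GFP- kept every cell type with fewer immature neurons. There was 1 array per fraction, so no value below has a replicate error, and no test or p-value was possible.

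The extracellular matrix is the protein mesh around and beneath cells. Fibroblasts of connective tissue are known as the main makers of fibrillar collagens, which are 3-stranded ropes, and of the small proteoglycans that coat them. Basement membranes, the sheets on which epithelia sit, are built of type IV collagen and laminins. In the nose such a sheet separates the olfactory epithelium from the lamina propria, which holds fibroblasts, vessels, glands and the glia around axon bundles. Matrix metalloproteinases cut these proteins and the Timp proteins block the enzymes.

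Nearly all matrix genes with a usable signal were lowest in the strongly fluorescent cells and highest in the unlabelled ones. Signals followed the order GFP- over GFP+ over GFP+++ in 52 of the 59 members, or 88.1%, against 28.6% of the 12331 genes, with signals under the floor ordered as deposited. Part of this order was set by the floor. GFP- had to be highest in the 5 members that passed in it alone (450 of all genes). GFP+++ had to be lowest in the 30 members that passed in GFP+ and GFP- only (1051 of all genes). The 7 members in another order were Col9a2, Col6a1, Mmp2, Mmp8, Mmp16, Mmp24 and Timp2. On the GFP+++ array 24 of the 59 members reached the floor, on the GFP+ array 54, and on the GFP- array all 59. That is 40.7%, 91.5% and 100% of the members, against 87.0%, 94.7% and 97.6% of the 12331 genes, so the share of members stands apart on the GFP+++ array and is near that of all genes on the others. The signal summed over all 81 members, with signals under the floor included, came to 12438 for GFP+++, 52430 for GFP+ and 82679 for GFP-. The GFP+++ sum was thus 15.0% and the GFP+ sum 63.4% of the GFP- sum. In bulk samples such as these, fewer cells of a type and less RNA per cell cannot be told apart.

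**Figure D1:**
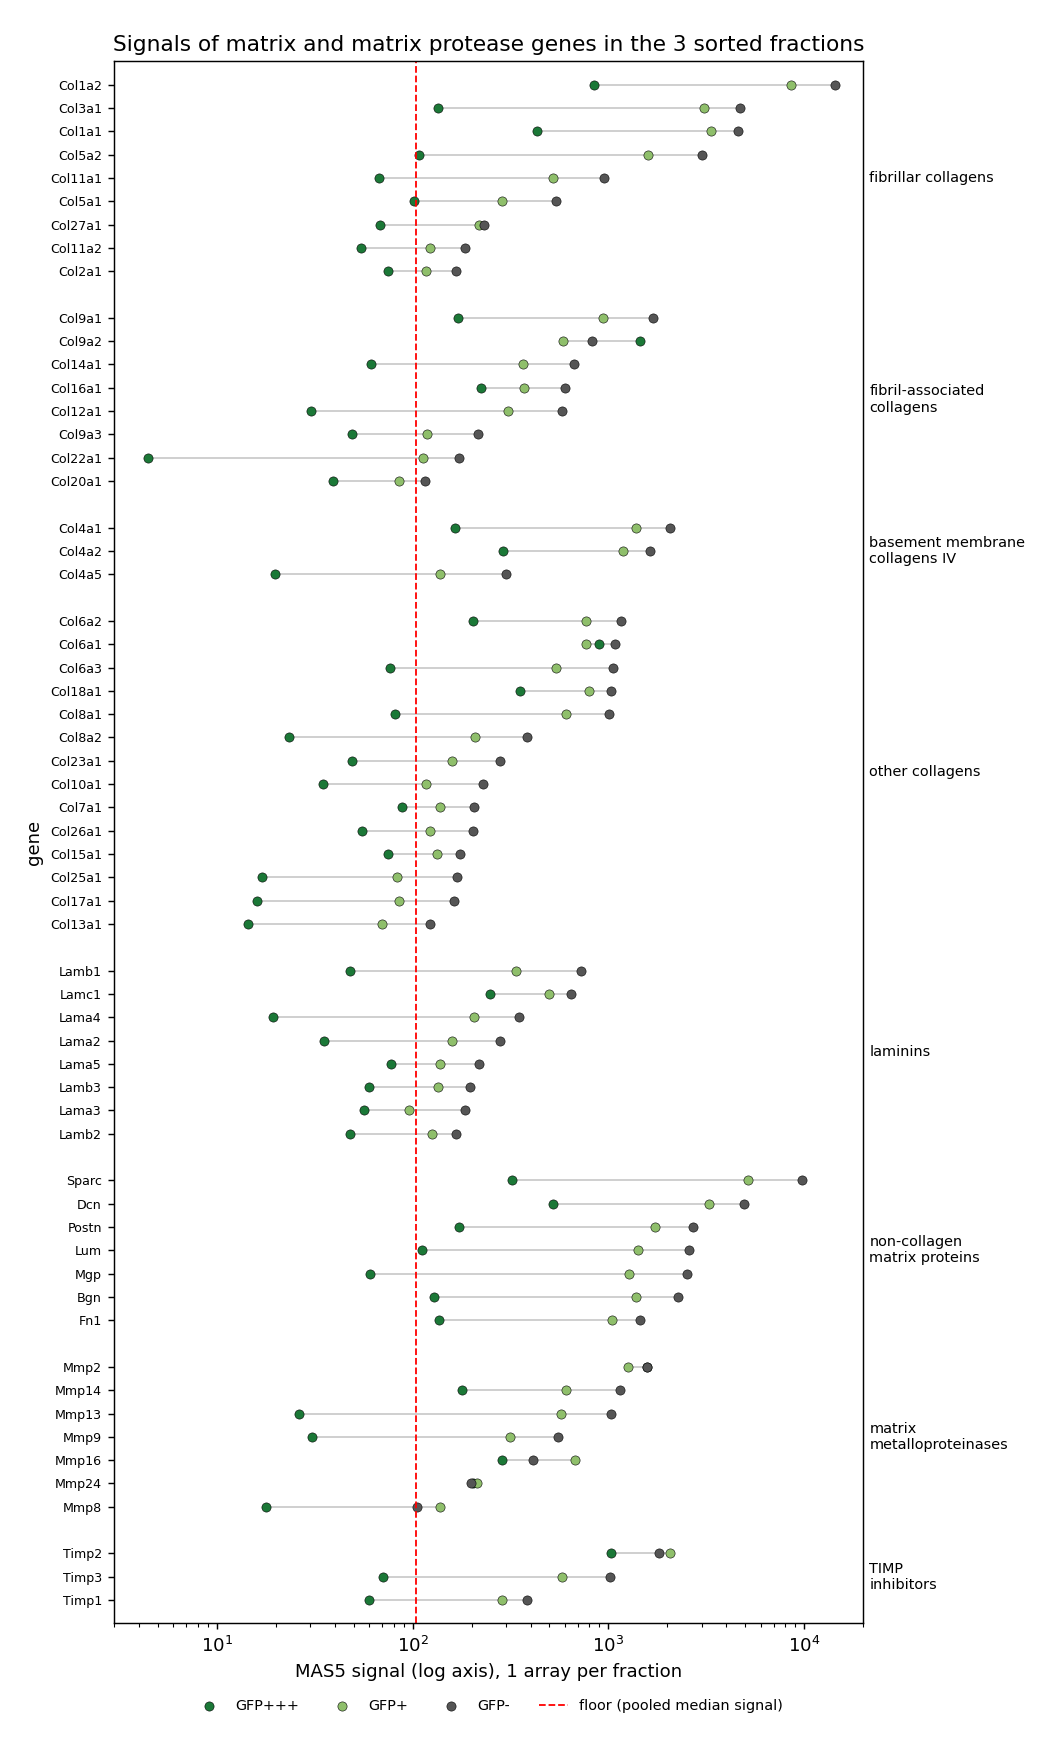
Signal of each of the 59 members on the 3 arrays, on a log axis, grouped by matrix type and sorted by the GFP- signal; each point is 1 array and the dashed line is the floor of 104. The GFP+++ point lies left of both others for most members, and Col9a2, whose GFP+++ signal of 1453 is its highest, stands out on the right.

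Against GFP-, 39 of the 59 members were at least 2-fold lower in GFP+++, where 12.4% of all 12235 genes compared were, and 0 were at least 2-fold higher, where 1.92% of all genes were. A member that passed through GFP- with GFP+++ under the floor had to be lower in GFP+++, as held for 35 of the 59. These counts thus describe the members that passed and not all 81. The floor also limits what can be seen. A gene can appear 2-fold lower only where its GFP- signal is at least 209, and 44 members reached that signal. Of these 44, 39 were at least 2-fold lower, or 88.6%, against 14.8% of all 10267 genes that reached it. The 5 that were not were Col6a1, Col9a2, Mmp16, Mmp2 and Timp2. The median log2 fold of the 59 members was -1.54, against 0.0090 for all genes compared. For 35 of them the GFP+++ signal lay under the floor, so the fold is a lower bound, and the 24 measured on both arrays had a median of -2.96. Of these 24, 18 were at least 2-fold lower, against 902 of the 10530 genes measured on both.

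The size of these folds depended in part on how the arrays were scaled, while the lower members far outnumbered the higher ones under each scaling. After division of every array by its own median signal, the median log2 fold of all genes moved to 0.42, that of members was -1.46, and 33 members were at least 2-fold lower and 1, Col9a2, at least 2-fold higher. The calls lost were those of Col10a1, Col16a1, Col27a1, Col9a3, Lama5 and Lamc1. A bound also moves with the floor. With the floor at the 65th percentile, a signal of 276, the calls of Col10a1, Col23a1, Col27a1, Col4a5, Col5a1, Col8a2, Col9a3, Lama2, Lama4, Lama5 and Timp1 were lost. Among all genes past 2-fold the lower share went from 86.6% to 48.1% with that scaling, and among members from 100% to 97.1%. The pooled SD of log2 folds between probe sets of a gene, over 4633 genes measured on both arrays by several, was 0.30. It compares probe sets on the same 2 arrays and holds no error between arrays or samples. For the 7 members so measured, the range between their probe sets had a median of 0.60 and a maximum of 1.45. Of the 39 lower members, 22 had another probe set with a value, and in all 22 every such set was also lower, though past 2-fold in 14.

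**Figure D2:**
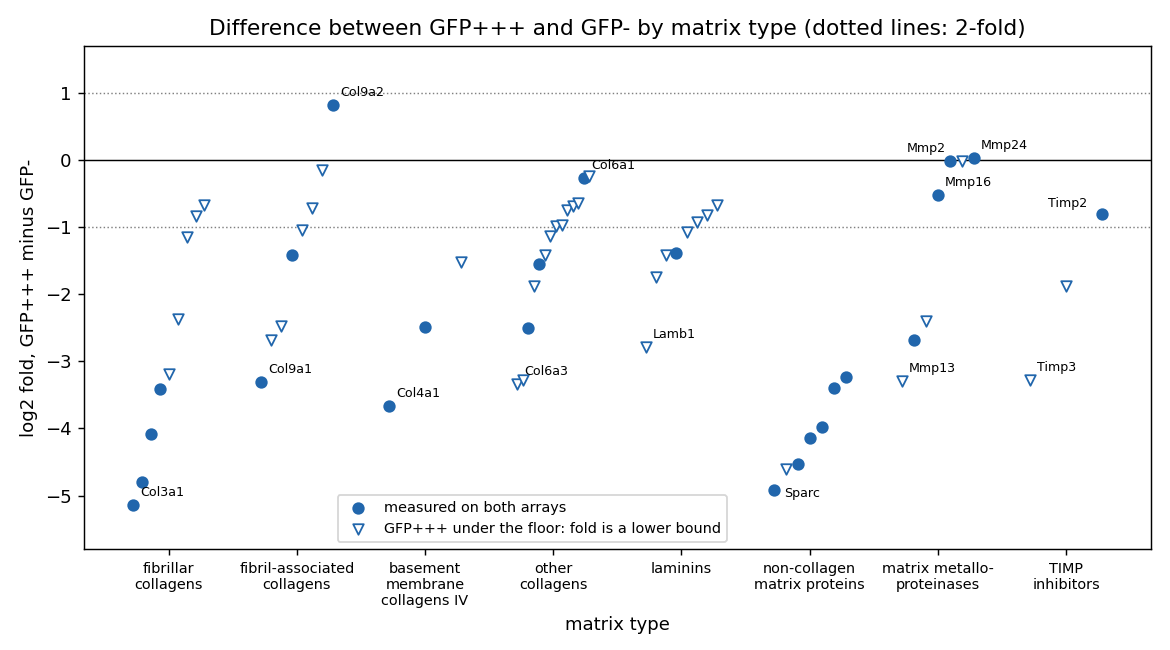
Log2 fold of GFP+++ minus GFP- for the 59 members, by matrix type; filled points were measured on both arrays, open triangles had a GFP+++ signal under the floor and are lower bounds, and the dotted lines mark 2-fold. Fibrillar collagens and the non-collagen matrix proteins reach furthest down (Col3a1 -5.14, Sparc -4.91), while Mmp2 (-0.01) and Mmp24 (0.03) lie at 0 and Col9a2 (0.82) above it.

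The fibrillar collagens were among the lowest members in GFP+++. Of 11 on the array 9 passed the floor, and 7 of these were at least 2-fold lower, with a median log2 fold of -3.18. That median was -2.49 with median scaling and -2.40 with the 35th percentile floor. Col3a1 encodes type III collagen of extensible connective tissue, and its signals were 134, 3068 and 4721 on the GFP+++, GFP+ and GFP- arrays, the order used for every triple of values below. It was 35.2-fold lower in GFP+++ than in GFP-, and a second probe set gave a log2 fold of -3.14, a bound. Col5a2, a chain of the type V collagen that sits inside type I fibrils, gave 108, 1584 and 3001, a 27.7-fold difference. Col3a1 and Col5a2 are neighbouring protein-coding genes on chromosome 1 in the RefSeq gene order.

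The chains of type I collagen, the main fibril of bone and skin, followed. Col1a2 gave 847, 8570 and 14317, and was 16.9-fold lower in GFP+++. Col1a1 gave 431, 3337 and 4572 and was 10.6-fold lower, and its other probe set gave a log2 fold of -4.86. Type I collagen is built from both chains, and both were well above the floor on all 3 arrays. Of the rest, Col11a1 (at least 9.09-fold), Col5a1 (at least 5.18-fold) and Col27a1 (at least 2.23-fold) were also lower. The cartilage chains Col2a1 (75.0, 117 and 167) and Col11a2 (54.5, 123 and 186) were too close to the floor to show 2-fold. Col5a3 and Col24a1 stayed under the floor.

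The matrix proteins that are not collagens were lower as a whole set. All 7 were at least 2-fold lower in GFP+++, with a median log2 fold of -4.14 (-3.22 with the 65th percentile floor), and Mgp was the 1 member of these whose fold is a bound. Sparc, a matricellular protein that binds collagen, gave 322, 5185 and 9707, a 30.1-fold difference, and another probe set gave -4.40. Lum, a small leucine-rich proteoglycan of collagen fibrils, gave 111, 1416 and 2567 and was 23.0-fold lower. Its relative Dcn gave 524, 3259 and 4911 and was 9.38-fold lower. Dcn and Lum are neighbours on chromosome 10, and Dcn kept the higher share of its GFP- signal in GFP+++ (10.7% against 4.34%).

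Postn, the matricellular protein periostin, gave 172, 1731 and 2718 and was 15.8-fold lower. Mgp, an inhibitor of calcification, gave 60.7, 1273 and 2525, the first under the floor, so it was at least 24.2-fold lower. Bgn, another small proteoglycan, gave 128, 1379.7 and 2259 and was 17.6-fold lower, with its other probe sets at -4.03 and -4.24, both bounds. Fn1, the cell-binding glycoprotein fibronectin, gave 137, 1048 and 1447 and was 10.6-fold lower. On the log2 scale the GFP+ signal of each of these 7 genes lay closer to GFP- than to GFP+++.

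Basement membrane collagen was lower in GFP+++ as well. Type IV collagen is assembled from 6 possible chains, and Col4a1, Col4a2 and Col4a5 passed the floor, while Col4a3, Col4a4 and Col4a6 did not. Col4a1 gave 164, 1388 and 2074, a 12.7-fold difference. Col4a2, its neighbour on chromosome 8 and its partner in the commonest type IV molecule, gave 291, 1190 and 1638, a 5.63-fold difference. Both were thus lower in GFP+++, with the GFP+ signal nearer to GFP-. Col4a5 gave 19.8, 139 and 300.1 and was at least 2.88-fold lower, a call lost with the 65th percentile floor (log2 -0.12) and with the median over probe sets (-0.80).

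Laminins, the other main sheet-forming proteins, had low signals in GFP+++. Of 10 on the array 8 passed the floor, 5 were at least 2-fold lower and the median log2 fold was -1.23, with 7 of the 8 being bounds. Lamb1, a beta chain, gave 47.6, 336 and 720.2 and was at least 6.90-fold lower. Its chosen probe set has the ending _s_at, given to sets that may detect more than 1 transcript. Without sets of that kind Lamb1 was at a log2 fold of -0.71, a bound. The GFP- signal of that set, 170, was too near the floor to show 2-fold. Lamc1, the gamma chain shared by most laminins, was above the floor on all arrays (248, 495 and 647) and 2.61-fold lower. Of the alpha chains, which bind cells, Lama4 (19.4, 206 and 349) was at least 3.35-fold and Lama2 (35.2, 159 and 279) at least 2.67-fold lower, both calls that were lost with the 65th percentile floor (-0.34 and -0.02). Lama5 was at least 2.10-fold lower. Lama3 (56.2, 96.2 and 185), Lamb2 and Lamb3 had GFP- signals under 209, so no 2-fold difference could be seen, and all 3 passed 2-fold with the 35th percentile floor. Lama1 and Lamc3 stayed under the floor.

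Among collagens that sit on fibrils, the chains of type IX parted. Type IX collagen is known as a molecule of 3 different chains on the surface of cartilage fibrils. Col9a1 gave 171, 939 and 1697, and was 9.94-fold lower in GFP+++. Col9a2 went the other way, with 1453, 586 and 825, so GFP+++ was its highest array, 1.76-fold above GFP- and 2.48-fold above GFP+. Col9a3 gave 49.3, 118 and 216 and was at least 2.06-fold lower. Col9a2 was the 1 member of 54 compared whose GFP+++ signal exceeded its GFP+ signal by 2-fold or more, where 0.985% of all 11881 genes did. Its direction held under each scaling (log2 0.82 as deposited, 1.23 with median scaling and 0.78 with quantile normalization, against GFP-). It has 1 probe set, so no second one bears on it.

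Col14a1, of the surface of type I fibrils, gave 61.2, 368 and 670.0 and was at least 6.42-fold lower. Col12a1, of the same kind, was at least 5.57-fold lower, with a GFP- signal of 581. Col16a1 gave 225, 369 and 599 and was 2.66-fold lower. Col22a1 (4.43, 113 and 172) and Col20a1 (39.3, 85.5 and 116) lay too near the floor to show 2-fold. Over the type 5 of 8 members were at least 2-fold lower, with a median log2 fold of -1.23 (-2.08 with the 35th percentile floor).

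Type VI collagen, a beaded filament close to cells, also parted. Its classic form holds 3 chains. Col6a2 gave 204, 764 and 1155, a 5.66-fold difference, and Col6a3 gave 76.3, 543 and 1060, at least a 10.2-fold difference. Col6a1 gave 895, 770.3 and 1080.1, so that GFP+++ kept 82.8% of its GFP- signal. Its log2 fold of -0.27 turned to 0.14 with median scaling. In GFP+ the 3 chains were all below GFP-, at 66.2%, 51.2% and 71.3% of it for Col6a2, Col6a3 and Col6a1, so they parted in the GFP+++ values. Col6a1 and Col6a2 are neighbours on chromosome 10, and Col6a1 has 1 probe set. Col6a4 and Col6a5 stayed under the floor.

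**Figure D3:**
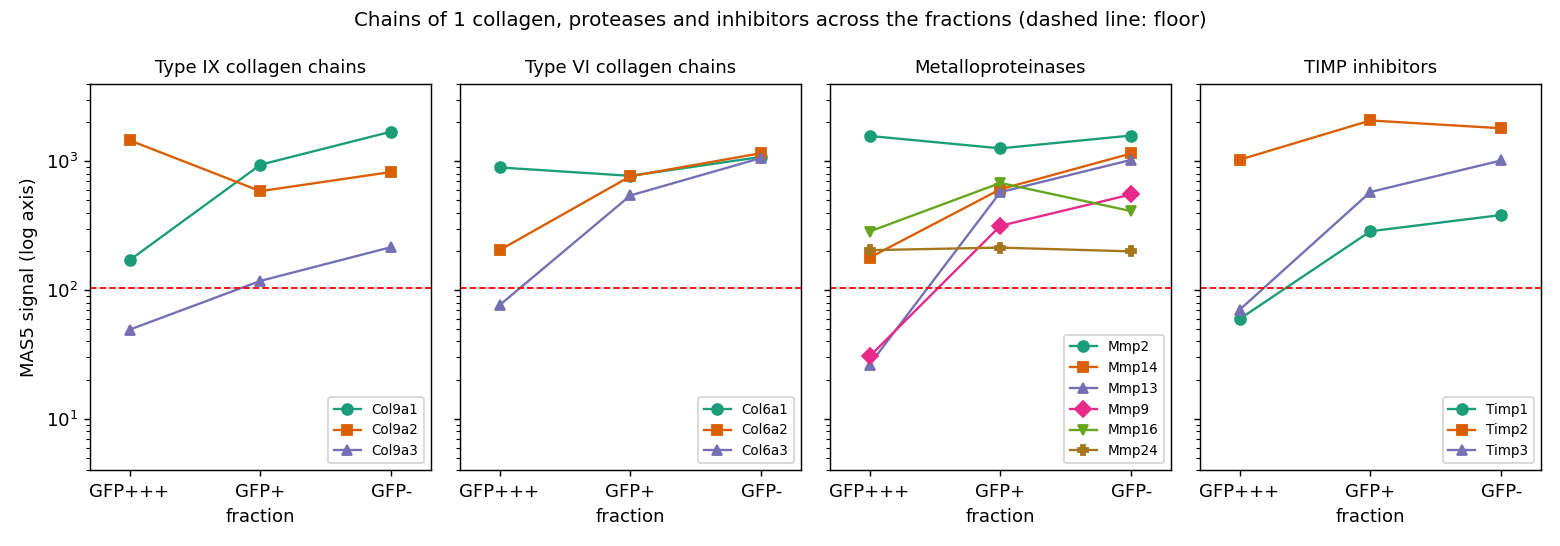
Signals (log axis) of the chains of type IX and type VI collagen, of 6 metalloproteinases and of 3 Timp genes in GFP+++, GFP+ and GFP-; each point is 1 array and the dashed line is the floor. Col9a2 and Col6a1 stay above the floor in GFP+++ (1453 and 895) where their partner chains lie nearer to it or under it, and Mmp2 and Mmp24 run flat while Mmp13 and Mmp9 lie under the floor in GFP+++.

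The promoters of these chains are shown because the data part them: Col1a2 and Col3a1 stand for the fibrillar genes that were low in GFP+++, and each of the pairs Col9a1 with Col9a2 and Col6a2 with Col6a1 holds a low chain and a chain that was not low. Sequences are from the RefSeq table of build GRCm38.p6, 5′ to 3′ on the gene's own strand, and cover the 250 bases before the most upstream start listed. They lie at chr6:4505368-4505617, chr1:45311288-45311537, chr1:24177360-24177609 and chr4:121039316-121039565 on the plus strand, and at chr10:76623631-76623880 and chr10:76726045-76726294 on the minus strand. Capitals mark matches, on either strand, to the TATA box, the GC box or the CCAAT box, whose letters are given after the sequences.
Col1a2: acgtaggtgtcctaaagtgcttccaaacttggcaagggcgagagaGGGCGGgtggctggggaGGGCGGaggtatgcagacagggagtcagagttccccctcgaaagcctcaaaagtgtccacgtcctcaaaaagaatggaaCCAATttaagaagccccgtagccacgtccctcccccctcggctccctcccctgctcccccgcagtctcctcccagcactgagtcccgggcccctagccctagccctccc
Col3a1: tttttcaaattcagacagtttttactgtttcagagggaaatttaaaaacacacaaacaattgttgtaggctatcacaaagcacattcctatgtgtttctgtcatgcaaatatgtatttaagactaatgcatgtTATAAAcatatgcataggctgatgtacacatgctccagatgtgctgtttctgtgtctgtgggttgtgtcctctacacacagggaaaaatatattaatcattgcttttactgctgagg
Col9a1: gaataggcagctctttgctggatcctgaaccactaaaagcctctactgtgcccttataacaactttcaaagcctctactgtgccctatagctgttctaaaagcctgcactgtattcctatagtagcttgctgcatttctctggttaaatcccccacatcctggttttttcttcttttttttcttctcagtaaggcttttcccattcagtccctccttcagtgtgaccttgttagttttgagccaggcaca
Col9a2: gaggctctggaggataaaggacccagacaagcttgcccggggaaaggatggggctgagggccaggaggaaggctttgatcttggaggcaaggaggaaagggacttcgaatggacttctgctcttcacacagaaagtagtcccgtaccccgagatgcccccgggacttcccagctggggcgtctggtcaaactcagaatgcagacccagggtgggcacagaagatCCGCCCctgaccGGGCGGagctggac
Col6a2: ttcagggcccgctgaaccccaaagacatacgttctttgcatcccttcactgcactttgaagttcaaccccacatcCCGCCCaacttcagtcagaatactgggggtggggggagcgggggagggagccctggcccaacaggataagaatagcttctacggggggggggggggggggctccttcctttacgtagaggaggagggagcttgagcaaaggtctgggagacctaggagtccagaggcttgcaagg
Col6a1: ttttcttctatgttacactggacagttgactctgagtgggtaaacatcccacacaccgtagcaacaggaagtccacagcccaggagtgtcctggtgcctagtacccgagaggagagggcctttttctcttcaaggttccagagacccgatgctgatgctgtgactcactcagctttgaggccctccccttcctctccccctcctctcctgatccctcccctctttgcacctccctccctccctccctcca

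Of the 81 members 58 had a promoter in that table. A TATA box was found in 12 of the 58 windows, against 13.0% of all 27025 gene promoters of the same length, a GC box in 29 against 33.0%, and a CCAAT box in 17 against 34.5%. The TATA box was searched as TATAAA and, for the opposite strand, as TTTATA. For the GC box the letters were GGGCGG, with CCGCCC for the opposite strand. For the CCAAT box they were CCAAT, with ATTGG for the opposite strand. Overlapping matches of different motifs were each counted. Col1a2 holds 2 GC boxes and 1 CCAAT box, and Col9a1 and Col6a1 hold none of the 3. Col3a1 holds 1 match to the TATA box letters, which begins 117 bases before the start listed. Col9a2 holds 2 GC boxes and Col6a2 holds 1. Among the 27 windows of members at least 2-fold lower in GFP+++, 18 held a GC box, and among the 14 of members within 2-fold, 6 did. Whether these groups differ was not tested, and 15 members that passed the floor had GFP- signals under 209 and could not be called lower. A TATA box was found in 3 of the 27 and 3 of the 14 windows, and a CCAAT box in 10 and 4. These matches describe letters in a window and not sites in use.

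The remaining collagens were mostly lower where they could be measured. Of 14 in this mixed group with type VI included, 7 were at least 2-fold lower, with a median log2 fold of -1.06 (-1.98 with the 35th percentile floor), and 11 were bounds. Col18a1, a basement membrane zone collagen whose end can be cut off as endostatin, gave 355, 794 and 1034 and was 2.91-fold lower, with its other probe set at -1.86, a bound. Col8a1, a short-chain network collagen, gave 81.7, 607 and 1009 and was at least 9.66-fold lower. Its partner Col8a2 was at least 3.69-fold lower. Col10a1, known from cartilage that turns to bone, was at least 2.19-fold lower, with a GFP- signal of 229. The transmembrane collagens Col13a1, Col17a1 and Col25a1 reached the floor in GFP- alone, with signals of 123, 163 and 169. Col23a1, of the same kind, was at least 2.67-fold lower. Col7a1, which anchors epithelia to the tissue beneath, Col26a1 and Col15a1 had GFP- signals of 206, 203 and 174, too near the floor to show 2-fold.

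The metalloproteinases divided into low and level genes. Of 18 on the array 7 passed the floor and 11 did not, and of the 7, 3 were at least 2-fold lower in GFP+++. The median log2 fold was -0.53, and it was -1.17 with median scaling and -1.36 with quantile normalization. Mmp13, a collagenase that cuts fibrillar collagen, gave 26.4, 576 and 1025 and was at least 9.82-fold lower. Mmp9, a gelatinase, gave 30.6, 315 and 553 and was at least 5.30-fold lower, with its other probe set at -2.02, both bounds. Mmp14, a membrane-anchored enzyme known to activate the Mmp2 proenzyme, gave 179, 606 and 1148 and was 6.43-fold lower. All 3 of its probe sets above the floor were lower (-2.68, and bounds of -1.80 and -1.06).

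Mmp2, the other gelatinase, did not follow these genes. Its signals were 1571, 1258 and 1583, and a second probe set gave 840, 632 and 881. The log2 folds of GFP+++ against GFP- were -0.01 and -0.07, and the former was 0.41 with median scaling. So Mmp2 stood level in the fraction where Mmp14 was 6.43-fold lower. Mmp24, a membrane-anchored enzyme known from neurons, was level too, at 204, 214 and 199.7, with a log2 fold of 0.03 (0.45 with median scaling). Its GFP- signal lies under 209, so that a 2-fold lower value could not have been seen.

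Mmp16, another membrane-anchored enzyme, was highest in the weakly fluorescent cells. It gave 285, 678 and 410.0, and was 1.66-fold higher in GFP+ than in GFP-. Its 3 probe sets above the floor had log2 folds of 0.73, 0.45 and 0.69 in that comparison. Against GFP-, GFP+++ was at -0.53, -0.39 and 0.07 on the same probe sets, so no common direction was seen there. Mmp8, the collagenase of neutrophils, reached the floor in GFP+ (137) and just in GFP- (105), with 17.9 in GFP+++. Mmp13, Mmp12, Mmp1b, Mmp3, Mmp1a, Mmp10 and Mmp8 follow each other on chromosome 9, and of this run Mmp13 and Mmp8 passed the floor. Mmp7, Mmp11, Mmp17, Mmp19, Mmp20 and Mmp23 also stayed under it.

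The Timp inhibitors parted as well. Timp3, which is known to bind the matrix, gave 70.3, 577 and 1014 and was at least 9.72-fold lower in GFP+++, with all 4 of its probe sets lower. Timp1 gave 59.6, 286 and 382 and was at least 3.66-fold lower, a call lost with the 65th percentile floor (-0.47). Timp2, known also as the partner of Mmp14 in activating Mmp2, gave 1027, 2071 and 1803, a log2 fold of -0.81 that did not reach 2-fold. Its 4 other probe sets above the floor lay at -1.13, -1.49, -1.52 and -1.65, and with the median over probe sets Timp2 was at -1.49. Timp2 was therefore lower on every probe set measured, but the chosen one shows the smallest difference. Timp4 stayed under the floor. The median log2 fold of the 3 Timp genes was -1.87, and -0.81 with the 65th percentile floor.

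The weakly fluorescent cells lay close to the unlabelled ones, though lower for nearly every member. Of the 59 members 55 had a lower signal in GFP+ than in GFP-, against 6242 of all 12196 genes compared, with a median log2 fold of -0.66 against -0.0082. The 5 members that passed the floor through GFP- alone (450 of all genes) had to be lower in GFP+. Over the 54 members measured on both arrays the median was -0.68, against 0.0027 for all genes so measured. At least 2-fold lower were 2 members, where 0.804% of all genes were, and at least 2-fold higher 0, where 0.607% were. These 2 were Col4a5 (139 against 300.1, 2.16-fold) and Lamb1 (336 against 720.2, 2.15-fold), and with median scaling neither passed 2-fold (-0.97 and -0.96). That scaling moved the median of all genes to 0.13, left the members' median at -0.52, and took the lower share of all genes' calls from 57.0% to 26.1%. Among the 54 members above the floor on both arrays, GFP+ held from 46.2% (Col4a5) to 166% (Mmp16) of the GFP- signal, with a median of 62.4%. The 4 members above 0 were Mmp8, Mmp16, Mmp24 and Timp2, and the direction of Timp2 (0.20) turned with the median over probe sets (-0.07).

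The medians of the types lay near each other in this comparison. Median log2 folds were -0.62 for fibrillar, -0.78 for fibril-associated, -0.58 for type IV and -0.67 for other collagens, -0.71 for laminins and -0.71 for the non-collagen proteins. The Timp genes (-0.42) and metalloproteinases (-0.33) were nearer to 0. Col27a1 (219 against 232) was the collagen nearest to its GFP- level, and its second probe set reached the floor in GFP+ alone. Whether the types differ was not tested, since 1 array stood for each fraction.

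Between the fluorescent fractions the differences were again large. GFP+++ was at least 2-fold below GFP+ for 32 of 54 members, where 9.34% of all genes were. The median log2 fold was -1.35 against -0.021. For 30 of the 54 the GFP+++ signal lay under the floor, so they had to be lower and their folds are bounds. With the 65th percentile floor 22 members were at least 2-fold lower. The median scaling gave 28 lower members and moved the median of all genes to 0.25, and the lower share of all genes' calls went from 90.5% to 64.8%. Col3a1 (22.9-fold), Sparc (16.1-fold) and Col5a2 (14.6-fold) were the lowest measured on both arrays. This comparison shares arrays with the 2 others and adds no independent evidence.

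**Figure D4:**
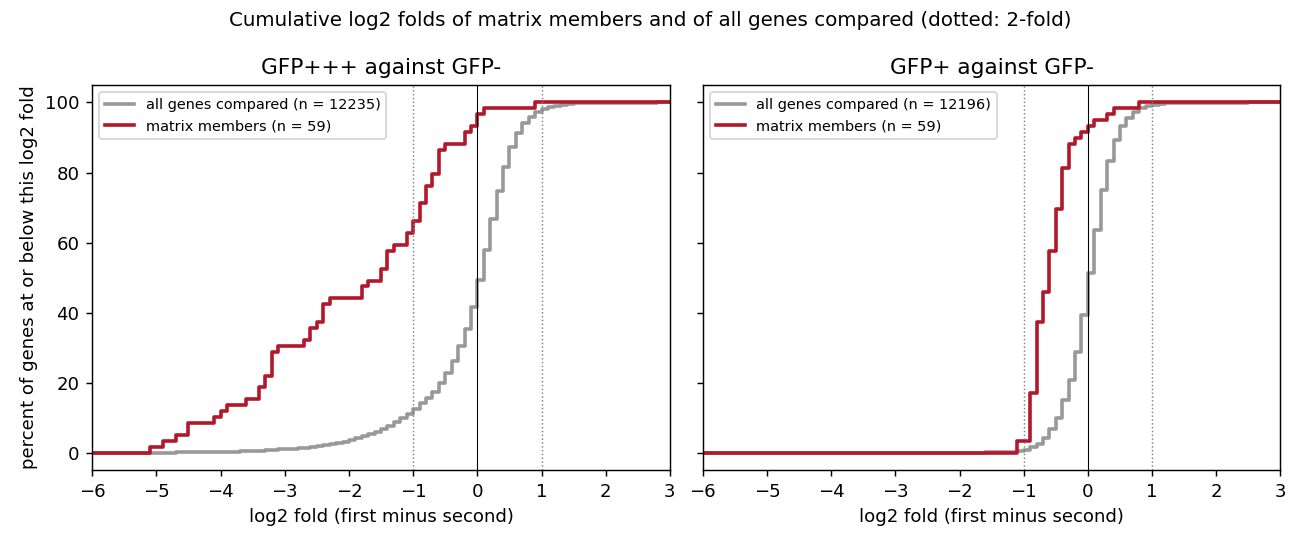
Cumulative share of genes, in percent, at or below each log2 fold, for the 59 matrix members and for all genes compared, in GFP+++ against GFP- and in GFP+ against GFP-; dotted lines mark 2-fold. The members' curve is shifted to the left in both panels, widely spread in GFP+++ (median -1.54) and narrow in GFP+ (median -0.66).

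Genes that serve the matrix without being members were described from further lists, whose counts in GFP+++ against GFP- stand beside the same 12.4% of all genes at least 2-fold lower and 1.92% higher. Of 23 genes that fold, process or crosslink collagen, 19 passed the floor, and 6 were at least 2-fold lower in GFP+++ and 0 higher (median -0.69). The lower ones included Serpinh1, the collagen chaperone (169, 1294 and 2333, 13.8-fold), and the crosslinking enzyme Loxl1 (5.53-fold). Lox and Pcolce, a crosslinker and an enhancer of procollagen processing, were at least 14.3-fold and at least 15.7-fold lower. The other 13 genes that passed did not reach 2-fold, among them Ppib (log2 -0.05), Plod3 (-0.17), Colgalt1 (-0.18), P4ha1 (-0.33) and P4hb (-0.37). Of these 13, P4ha2, P3h1, P3h3, Plod1, Bmp1 and Loxl3 had GFP- signals under 209, so no 2-fold lower value could be seen. This limit holds for the lists below too.

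Of 11 basement membrane partners that passed, 5 were at least 2-fold lower (median -0.72), against 12.4% of all genes. Nid1, which links laminin to type IV collagen, was at a log2 fold of -3.17, a bound. The integrin ligand Npnt was 7.52-fold lower (211, 959 and 1590.1), and Fras1, a protein of the epithelial basement membrane, 2.70-fold (107, 202 and 288). Agrn, a heparan sulfate proteoglycan known from synapses, was highest in GFP+++ (3117, 1507 and 1639), 1.90-fold above GFP-. Hspg2, perlecan, was at 0.25.

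Of 14 elastic fibre and microfibril genes, 8 were at least 2-fold lower (median -1.14), led among those measured on both arrays by Fbln1 (6.32-fold) and Ltbp3 (3.52-fold). Matricellular and other glycoproteins were at least 2-fold lower for 12 of 17 (median -2.04), with Igfbp7 (14.5-fold) and Ccn2 (8.82-fold) lowest on both arrays and Matn2 level at 0.15. Proteoglycans were at least 2-fold lower for 11 of 20 (median -1.56), with Sdc1 (4.32-fold) and Gpc4 (3.64-fold) the lowest measured on both arrays. Of these 20 folds 12 were bounds, and the 8 proteoglycans measured on both arrays had a median of -0.15, with 3 at least 2-fold lower. The cell-surface glypicans Gpc2 (1133, 431 and 626) and Gpc1 (2556, 2146 and 1750) lay above GFP- in GFP+++, at 0.86 and 0.55.

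Other proteases and inhibitors were at least 2-fold lower for 9 of 24 (median -0.79), against 12.4% of all genes, among them Plat, the tissue plasminogen activator (3.28-fold), and the cathepsin Ctsl (2.51-fold). Adam19 was at 0.45. Of the cell-surface receptors for matrix, 8 of 17 were at least 2-fold lower (median -0.82), such as Itgav (7.34-fold) and Itga6 (2.95-fold). Itga3 (695, 439 and 487) and Ddr1, a collagen-binding kinase (1416, 600 and 1011), were at 0.51 and 0.49. Against GFP-, these 7 lists held 0 genes at least 2-fold higher in GFP+++. Against GFP+, Agrn (2.07-fold), Gpc2 (2.63-fold) and Ddr1 (2.36-fold) were higher by that much. Median scaling adds 0.42 to each log2 fold against GFP- that was measured on both arrays, so Agrn and Gpc2 then pass 2-fold, and values such as those of Ppib and P4hb turn positive.

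In several non-neuronal cell types many markers were, like the matrix genes, lower in GFP+++, and their part in the results was not tested. Counts of markers past 2-fold in GFP+++ against GFP- stand beside 12.4% of all genes lower and 1.92% higher. Of all 18193 genes, 10734, 11674 and 12031 reached the floor on the GFP+++, GFP+ and GFP- arrays, beside which the counts of markers above it stand. Fibroblast markers outside the members passed the floor for 8 of 15, of which 2 lay above it in GFP+++, and their summed signals were 665, 3129 and 4709. Of these 8, 5 were at least 2-fold lower in GFP+++ and 1 higher (median -2.28). The receptors Pdgfra (4.81, 420.1 and 605) and Pdgfrb were under the floor in GFP+++. Fap was 8.04-fold lower, and Pi16 was 2.06-fold higher (269, 176 and 130). Bone and cartilage markers reached the floor for 0 of 10 in GFP+++, while 6 did so in GFP+ and 8 in GFP-, with summed signals of 419, 2313 and 4374. Among them Ibsp, a bone matrix protein, gave 42.6, 1169.6 and 2523, and 5 of the 8 that passed were at least 2-fold lower (median -1.16). The label of the tissue is olfactory epithelium, and the GFP+ and GFP- arrays thus also held signals of bone and connective tissue genes. Some connective tissue genes were above the floor on the GFP+++ array too, such as Col1a2 (847) and Dcn (524).

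Macrophage and neutrophil markers were above the floor for 3 of 13 in GFP+++ and 12 in both other fractions, with sums of 839, 18643 and 23348. Csf1r gave 151, 3685 and 5051 and was 33.5-fold lower in GFP+++ than in GFP-, and S100a8, of neutrophils, was 30.2-fold lower (137, 4020 and 4134). Endothelial and pericyte markers gave sums of 4588, 11736 and 17504 (6, 10 and 12 of 13 above the floor), and ensheathing glia and Schwann cell markers 2386, 8123 and 12308 (4, 7 and 10 of 10). Cldn5 and Rgs5 of the former were 5.88-fold and 4.01-fold lower, and Apod and Fabp7 of the latter 10.2-fold and 4.40-fold. Rgs5 (3523, 9177 and 14137) led the sum of its list. Of the 12 endothelial and pericyte markers that passed, 5 were at least 2-fold lower and 7 within 2-fold (median -0.77). Of the 10 glia markers 7 were at least 2-fold lower (median -1.74). Horizontal basal cell markers gave 436, 1975 and 3021 (1, 8 and 8 of 8), and Krt5 was 4.23-fold lower in GFP+++. Sustentacular and Bowman gland markers, at 39900, 56319 and 80344, had 9, 11 and 11 of 11 above the floor, and their lowest were Ascl3 (6.54-fold lower) and Bpifa1 (4.21-fold). At least 2-fold lower were 12 of 12 macrophage and neutrophil, 5 of 8 horizontal basal cell and 8 of 11 sustentacular and gland markers. Their medians were -3.56, -1.76 and -1.55. The counts above the floor stand beside the same 10734, 11674 and 12031 of 18193 genes.

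The neuronal markers were compared with the labels. All 11 immature neuron markers were above the floor on each array, with sums of 90862, 61724 and 74021, and 2 of them, Nhlh1 (2.35-fold) and Crmp1 (2.10-fold), exceeded GFP- by 2-fold or more in GFP+++. In the same list Neurod1 was 1.63-fold lower in GFP+++ (4078, 5069 and 6649) and Stmn1 was at a log2 fold of -0.06. The sums of 11 mature neuron markers were 58091, 86260 and 78827, so GFP+ held the highest and GFP+++ still held 73.7% of the GFP- sum. Of these markers Pde1c was 2.03-fold and S100a5 1.68-fold lower in GFP+++ than in GFP-, and Cnga2 was at a log2 fold of 0.05. A sum includes signals under the floor and is led by its brightest probe sets, and it is compared here between arrays only. Acan, Sox9 and Itgb4 each stand in 2 lists.

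**Figure D5:**
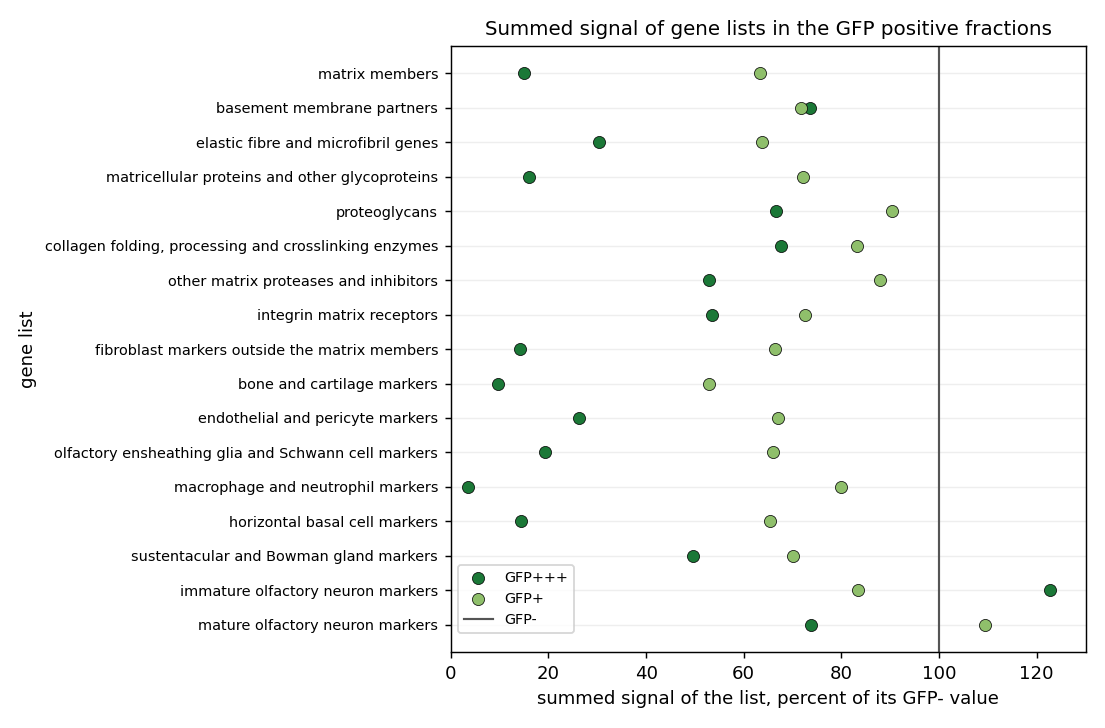
Summed signal of each gene list in GFP+++ and GFP+, in percent of the same list's sum in GFP- (vertical line at 100); each point is 1 array. Matrix members (15.0% in GFP+++ and 63.4% in GFP+) lie near horizontal basal cell markers (14.4% and 65.4%) and fibroblast markers (14.1% and 66.4%). Glia markers (19.4% in GFP+++) lie close by, whereas immature neuron markers reach 123% in GFP+++. Sums include signals under the floor, which 1 of 8 horizontal basal cell and 2 of 15 fibroblast markers reached in GFP+++. Nearness of such points in GFP+++ is thus not a measured likeness.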

How the data were processed

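Gene expression was measured on Affymetrix Mouse Genome 430 2.0 arrays, 1 per fraction. The deposited files hold a linear intensity per probe set. The authors' software for it was MAS5, per the submitters' processing notes, whose version and settings are not given here. The authors' values had a 2% trimmed mean of 500.0 on each array, and no detection calls were used. Python 3.11.15, pandas 2.3.3 and numpy 2.4.6 were used. The platform annotation pairs 34958 of the 45101 probe sets with 1 symbol, 932 with several and 9211 with none. All 81 members were matched to RefSeq genes by Entrez identifier.

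The 2% trimmed means of the arrays were set equal, signals under the pooled median of 104 were raised to it, and arrays were compared as log2 ratios. A gene needed a signal over the floor on 1 of the compared arrays, and its fold is a bound if the other fell short; 2-fold was the threshold. With 1 array per group there was no test, and the number of arrays limits the precision. Full values were given for the up to 4 members of each type with the highest mean signal, for any at least 2-fold higher than in GFP-, for those measured in both GFP+++ and GFP- that were within 2-fold, and for those 2-fold apart between GFP+ and GFP-; of the other lists, the 2 largest folds measured on both arrays in each direction of GFP+++ against GFP-. Of marker lists some of these are given by fold alone. Any other gene was singled out with its values in view. Scripts were tested on simulated data. Members, types and lists were chosen with earlier results of these data known. Alternatives were median scaling, quantile normalization, floors at the 35th and 65th percentile, the median over probe sets, leaving out probe sets ending in _s_at or _x_at, and folds of 1.5 and 3.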

Additional observations from a re-analysis of the deposited data

How the results depend on the processing

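The lower counts of GFP+++ held best. Against GFP-, 39 members were at least 2-fold lower, and from 28 (65th percentile floor) to 53 (35th percentile floor) were under the other floors, scalings and choices of probe set; 28 of the 39 were kept under the 65th percentile floor and all 39 under the 35th. The median of members was -2.08 with the 35th percentile floor, where more members passed, and against GFP+ it was -1.03 with median scaling. The counts of few members moved, and the cause was not tested. Higher in GFP+++ against GFP- was 1 member with median scaling and 1 at a fold of 1.5. Against GFP-, the count lower in GFP+ was 0 members with median scaling, 4 with quantile normalization, 1 with the 65th percentile floor and 1 without _s_at and _x_at probe sets, and at the other fold thresholds 0 (3-fold) and 37 (1.5-fold). At a fold of 1.5, 1 member was higher in GFP+ against GFP-, and at a fold of 3, 0 were higher in GFP+++ against GFP+. No value that passed 2-fold, of the members named by rule, and no median of a type changed sign in the same comparison under the alternatives of scaling, floor or probe set. Of 48 values of the 8 type medians in GFP+++ against GFP-, 15 moved by more than the spread between probe sets. Of 185 values of named members against GFP- in GFP+++, 122 moved by less than the spread between probe sets. Signals under the floor limit the dim members. No paired analysis was possible because each fraction had 1 array.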
